A study of Equus caballus with 25 samples.

Results

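The comparison described here set the endometrium of mares at day 8 of the oestrous cycle, the mid luteal phase, against that at day 3, the early luteal phase. Its members were chosen by the sample labels alone, as the 5 arrays of day 8 and the 5 arrays of day 3, which are 10 of the 25 arrays of the series. The series measured messenger RNA in the lining of the uterus of 5 cycling Bavarian Warmblood mares on days 0, 3, 8, 12 and 16, with ovulation on day 0. Each mare gave 1 transcervical biopsy per day, over several cycles, and each biopsy was hybridised to 1 one-colour Agilent array. Arrays with the same number came from the same mare, so every difference below was taken within mares. The mares received no treatment that the labels name. The labels call day 3 early dioestrus and day 8 dioestrus. A transcervical biopsy holds luminal and glandular epithelium, stroma, vessels and leukocytes together. In such bulk samples, fewer cells of a type and less RNA per cell cannot be told apart.

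After ovulation the corpus luteum forms and secretes progesterone, which acts on the endometrium through its nuclear receptor. Under progesterone the uterine glands turn to secretion and release the proteins, lipids and sugars, together called histotroph, that feed an early embryo before it attaches. In the mare the conceptus stays mobile in the uterine lumen for an unusually long time and depends on this secretion. Uterocalin, a lipocalin that carries lipids to the equine conceptus, is the best known of these proteins. If no embryo is recognised, prostaglandin F from the endometrium ends the luteal phase.

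Each array held 43803 spots of 43603 probes. The 75th percentile of the signal, to which each array was scaled, was 1601 to 2492 at day 3 and 1334 to 1673 at day 8, and it was lower at day 8 in 5 of 5 mares (exact sign-flip permutation test, two-sided p = 0.0625, the smallest that 5 pairs can give). Between 75.8% and 84.3% of the spots were well above background at day 3 and between 75.2% and 83.2% at day 8 (p = 0.6875, same exact permutation test). In mares 1, 2 and 5 both arrays lay on 1 slide. On the day 8 array of mare 2 the local background reached 772899 at single spots, against at most 251 on the other arrays. P19, the gene of uterocalin, and ESR1, the oestrogen receptor alpha, were well above background on all 10 arrays. Few markers of cell types had a named probe. None passed the test for epithelium (ESRP1, −0.03 ± 0.16), ciliated cells (DYDC1, 0.37 ± 0.35), stroma (LUM, 0.02 ± 0.30, and DCN, −0.33 ± 0.23), smooth muscle (TAGLN, 0.01 ± 0.34) and endothelium (PECAM1, −0.20 ± 0.19), nor did the 3 of macrophages (CD68, CD14 and ITGAX). These values are log2 changes, day 8 minus day 3, with their standard error. Of 4 markers of T and NK cells, GNLY fell, while GZMB (0.64 ± 0.24), CD2 (−0.12 ± 0.25) and CCL5 (−0.50 ± 0.22) did not pass. Markers of B cells, neutrophils and red cells had no tested probe, so these cells could not be followed.

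The uterine endometrium differed in both directions between day 3 and day 8. The biopsies of a mare were taken over several cycles, so these days of a mare may come from different cycles. With limma, 6037 of 35769 tested probes (16.9%) differed between day 8 and day 3 at an adjusted p under 0.05, of which 2730 (7.63%) were higher and 3307 (9.25%) lower at day 8. A change of at least 2-fold was reached by 1529 of the higher and 1216 of the lower probes. The same direction in all 5 mares was found for 5611 of the 6037 called probes. Of 514 genes with a name, each represented by 1 probe, 89 (17.3%) were called, 41 (7.98%) risen and 48 (9.34%) fallen. The named genes were thus called about as often as all probes. The arrays of both days did not overlap for 68 named genes (13.2%), against 14.2% of all probes. The median log2 change was 0.08 over all tested probes and 0.01 over the named genes. With slide as a further term 3485 probes were called, and in the 3 mares with both arrays on 1 slide 2478. Without the day 8 array of mare 2 the count was 4720, and without all arrays of 1 mare it lay between 4007, without mare 2, and 4432, without mare 1. Without mares 3, 4 and 5 it was 4385, 4082 and 4037. Where such a setting ended the call of a gene, this is given beside it, the mares with both arrays on 1 slide being called one-slide mares. Normexp there is a background correction and quantile normalization another scaling of the arrays. Fitted on the 10 arrays of days 3 and 8 alone, the balance of the calls turned, with 2710 probes higher and 2405 lower, and with 38 named genes risen and 35 fallen.

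Among uterine secretory proteins, 7 of 37 listed genes had a tested probe, of which 4 rose and 1 fell, with a median log2 change of 0.85. Counts of this and the later lists stand beside 7.98% risen and 9.34% fallen over all named genes. Members were chosen with earlier results known, and no list was tested as a set. P19, which encodes uterocalin, stood at log2 levels, relative to the 75th percentile of the array, of 6.64, 5.14, 4.89, 4.03 and 7.02 in mares 1 to 5 at day 3 and at 7.53, 8.01, 7.72, 7.77 and 7.68 at day 8. All day 8 arrays lay above all day 3 arrays. The rise was 2.20 ± 0.48 on the log2 scale, which is 4.59-fold (adjusted p = 0.00353). The mares differed widely at day 3, where mares 1 and 5 were highest, and the SD between mares was 1.25 at day 3 and 0.17 at day 8. P19 lost its call in the 3 mares with both arrays on 1 slide (log2 change 1.47, adjusted p = 0.188).

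LGB1, which encodes beta-lactoglobulin, the milk whey lipocalin, had levels of −4.79, −6.47, −6.33, −7.14 and −3.76 at day 3 and of −4.16, −3.98, −3.71, −3.61 and −3.44 at day 8. It rose by 1.92 ± 0.48 (3.78-fold, adjusted p = 0.00886), and in each mare the day 8 array was the higher. The groups overlapped, since mare 5 at day 3 reached the range of day 8. As for P19, mares 1 and 5 were the highest at day 3. At day 3 the LGB1 probe was above background on 4 of 5 arrays. LGB1 lost its call without mare 3 or 4, with slide added or in the 3 one-slide mares (log2 change 1.15 to 1.77, adjusted p 0.0544 to 0.297). After normexp it passed with a log2 change of 0.89 (1.85-fold).

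GPX3, the secreted glutathione peroxidase, stood at −0.63, −0.63, −0.72, −2.15 and −0.95 at day 3 and at 0.17, 0.49, 0.08, −0.38 and −0.04 at day 8. The groups did not overlap, and mare 4 was lowest on both days. It rose by 1.08 ± 0.37 (adjusted p = 0.0497), close to the threshold. Its 5 other probes, at 1.46 to 1.56, passed in the same direction (adjusted p 0.0059 to 0.0135). GM2A, the ganglioside activator protein of the lysosome, went from −1.58, −1.82, −1.93, −1.91 and −1.98 to −0.09, −1.11, −1.25, −1.40 and −1.12. Every day 8 array lay above every day 3 array, with mare 1 far above the others at day 8, and the rise was 0.85 ± 0.27 (adjusted p = 0.0348). CLU, the secreted chaperone clusterin, was the member that fell, from 5.34, 5.86, 5.62, 6.06 and 6.21 to 4.83, 5.21, 5.17, 4.90 and 5.30, without overlap (−0.74 ± 0.22, adjusted p = 0.026). The remaining 2 members, RBP4, the retinol carrier (0.47 ± 0.48), and B2M, the light chain of MHC class I (0.24 ± 0.18), did not pass. GPX3 missed the threshold without mare 2, 3, 4 or 5, without the day 3 array of mare 4, without the day 8 array of mare 2 or under 5 other alternatives (log2 change 0.89 to 1.20, adjusted p 0.0635 to 0.353). GM2A was not called without mare 1, 2, 3, 4 or 5 or in the 3 one-slide mares (log2 change 0.69 to 1.02, adjusted p 0.0507 to 0.109). CLU did not pass without mare 1, 2, 3 or 5, without the day 3 array of mare 4, without the day 8 array of mare 2, without the mare term or with scan day added (log2 change −0.81 to −0.60, adjusted p 0.0525 to 0.126).

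**Figure D1:**
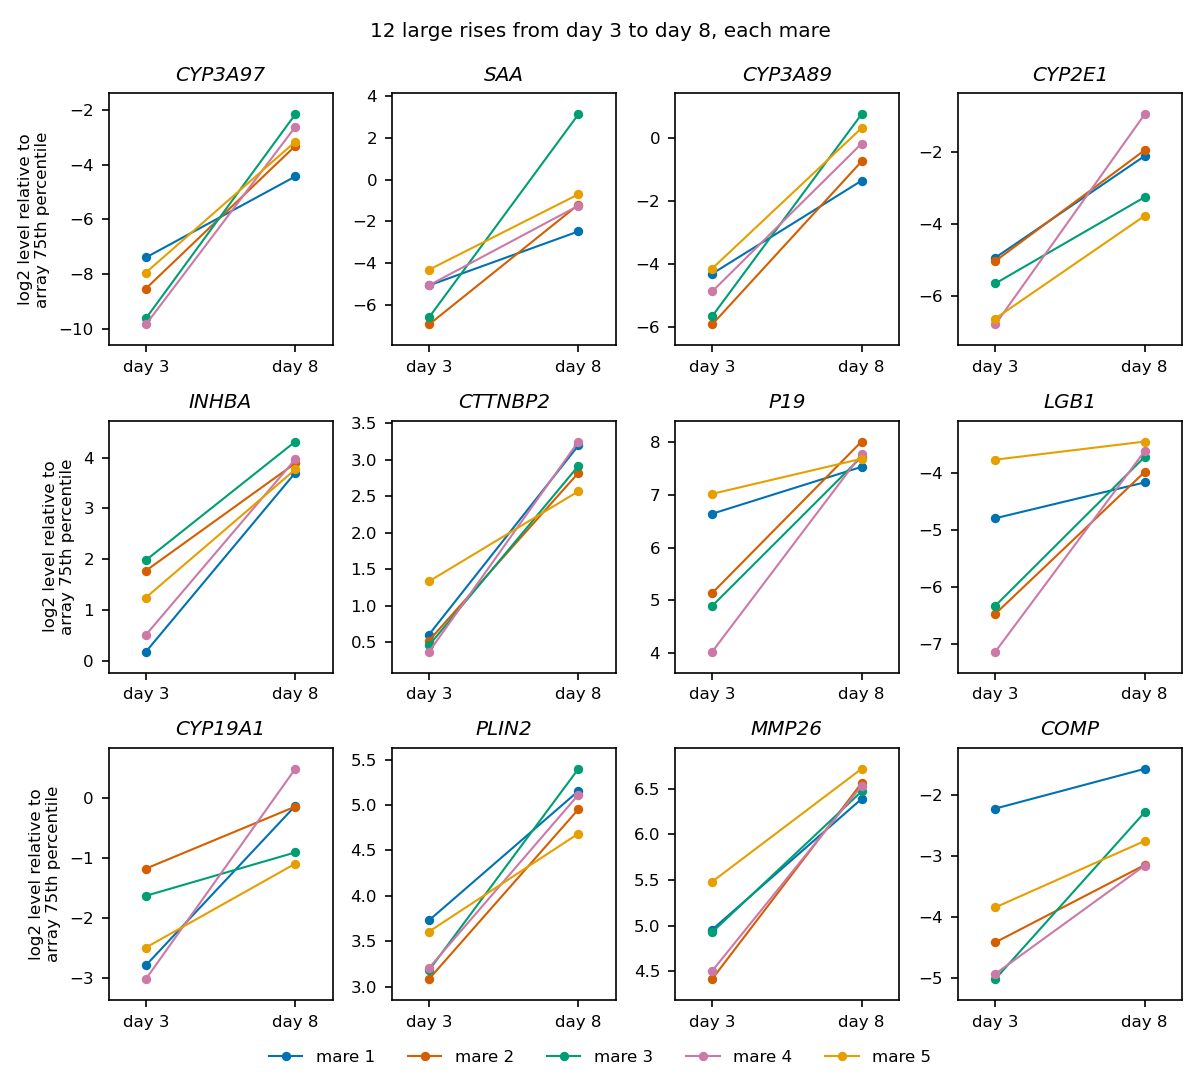
Log2 level relative to the 75th percentile of the array (vertical axis, a separate scale in each panel) at day 3 and day 8 for 12 genes with large rises. Each line joins both arrays of 1 mare, and every line rises. The P19 lines start spread between 4.03 and 7.02 and end between 7.53 and 8.01.

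Cytochromes P450 and other enzymes of steroid metabolism had 16 tested members of 43 listed, of which 4 rose and none fell (median 0.34). The share over all named genes was 7.98% risen and 9.34% fallen. CYP3A97, of the CYP3A family that oxidises steroids and drugs, stood at −7.39, −8.52, −9.61, −9.83 and −7.94 at day 3 and at −4.43, −3.32, −2.16, −2.62 and −3.16 at day 8. The 2 groups were far apart, and at day 3 the probe was above background on 1 of 5 arrays, so the day 3 level is poorly measured. The fitted change was 5.52 ± 0.58 on the log2 scale (adjusted p = 7.92e-06). Because it was taken largely against signals not above background, its size is not a measured fold. Each array has a floor, the dimmest signal among its probes that are well above background. With day 3 signals below the floor raised to it, the fold was 17.8. CYP3A89, a relative, went from −4.30, −5.91, −5.65, −4.87 and −4.14 to −1.35, −0.74, 0.75, −0.18 and 0.31, again without overlap (4.73 ± 0.46, 26.6-fold, adjusted p = 3.58e-06). Whether the probes of these paralogues tell them apart was not tested. Both were called under every alternative tried, but the sizes moved. After normexp, a background correction that lowers the changes of dim probes, the log2 change was 2.17 for CYP3A97 and 3.73 for CYP3A89 (4.51-fold and 13.3-fold). CYP3A97 was at 4.84 with slide added, 4.31 in the 3 mares with both arrays on 1 slide and 6.16 without mare 1.

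CYP2E1, which oxidises small molecules such as ketones and alcohols, had levels of −4.93, −5.03, −5.65, −6.79 and −6.62 at day 3 and of −2.11, −1.95, −3.25, −0.95 and −3.77 at day 8. Its rise of 3.40 ± 0.82 (10.5-fold, adjusted p = 0.00722) was shared by its 4 other probes, all of which passed. Their log2 changes were larger, at 3.52 to 5.94, so the size of the rise depended on the probe. CYP19A1, the aromatase that converts androgens to oestrogens, went from −2.79, −1.18, −1.63, −3.02 and −2.50 to −0.14, −0.15, −0.91, 0.48 and −1.10. For both genes every day 8 array lay above every day 3 array, and the CYP19A1 rise was 1.86 ± 0.48 (3.63-fold, adjusted p = 0.0112). Genes of the earlier steps of steroid synthesis did not pass. These were STAR, which moves cholesterol into mitochondria (0.35 ± 0.29), CYP11A1, which cleaves its side chain (−0.17 ± 0.42), CYP17A1 (−0.07 ± 0.22) and HSD3B2 (0.59 ± 0.48). HSD17B1 (0.34 ± 0.31) and SULT1E1, which sulphates oestrogens (0.34 ± 0.36), did not pass either. CYP2E1 lost its call without mare 4, with slide added or in the 3 one-slide mares (log2 change 2.79 to 3.16, adjusted p 0.0518 to 0.161). After normexp it passed with 2.19 (4.56-fold). CYP19A1 missed the threshold with slide added or in the 3 one-slide mares (log2 change 1.69 to 1.87, adjusted p 0.0663 to 0.0687).

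Of the activin, inhibin, follistatin and TGF-beta family, 5 of 34 listed genes were tested and 2 rose (median 0.71). INHBA encodes the subunit shared by activin A and inhibin A. Its levels were 0.18, 1.77, 1.98, 0.51 and 1.24 at day 3 and 3.70, 3.89, 4.32, 3.97 and 3.77 at day 8, and the lowest day 8 array lay well above the highest of day 3. It rose by 2.79 ± 0.50 (6.93-fold, adjusted p = 0.000631), as did its 3 other probes. FST encodes follistatin, which binds activin and blocks it. It went from 1.86, 2.19, 2.17, 2.68 and 1.96 to 3.44, 3.08, 3.29, 3.30 and 3.16, without overlap (1.08 ± 0.19, 2.12-fold, adjusted p = 0.000502). INHA, the alpha subunit specific to inhibin, did not pass (0.71 ± 0.27, adjusted p = 0.075), nor did TGFB1 (0.26 ± 0.27) and MSTN (0.13 ± 0.39). INHBA and FST thus both rose, and both calls held under every alternative tried. Whether the INHBA rise concerns activin A or inhibin A was not tested.

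Over the 5 days sampled, P19, both CYP3A genes, CYP19A1, INHBA, FST and PLIN2 had their highest daily mean at day 8, while that of CYP2E1 and GPX3 lay at day 12. FST had means of 0.63 ± 0.18 (SD, n = 5) at day 0 and 0.09 ± 0.34 at day 16, below both luteal days compared. The CYP3A97 probe was above background on 1 of 5 arrays at each of days 0, 3 and 16 and on 5 of 5 at days 8 and 12. Of the 41 risen named genes, 25 had their highest daily mean at day 8 and 14 at day 12. Of the 48 fallen, 24 had their lowest at day 8 and 22 at day 12. These counts were not tested, and days 3 and 8 enter both the choice of the genes and the daily means.

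**Figure D2:**
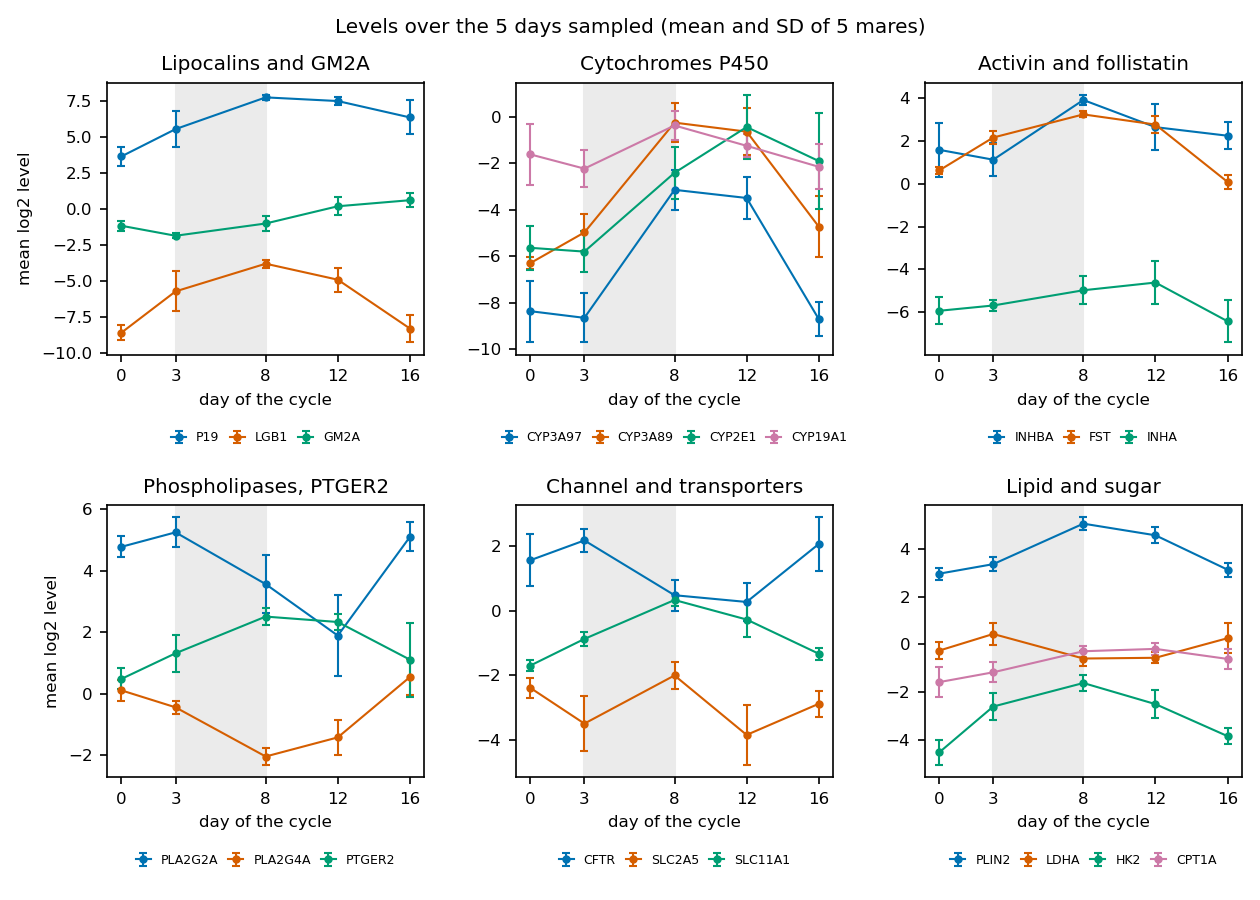
Mean log2 level with the SD of 5 mares (vertical axis) over the days of the cycle (horizontal axis), for genes of 6 groups. The grey band spans the interval from day 3 to day 8. Levels of different genes cannot be compared, since each probe has its own response. CYP3A97 and CYP3A89 are high at days 8 and 12 and low at days 0, 3 and 16, where most CYP3A97 signals are not above background.

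In the prostaglandin and oxytocin pathway, 10 of 30 listed genes were tested, of which 1 rose and 2 fell (median 0.00). The 2 that fell are phospholipases A2, which release arachidonic acid, the precursor of prostaglandins. PLA2G4A, the cytosolic form, went from −0.72, −0.56, −0.31, −0.15 and −0.47 to −2.17, −2.19, −1.67, −2.32 and −1.84. The groups were clearly apart, and the fall was −1.60 ± 0.29 (3.03-fold lower, adjusted p = 0.000762), under every alternative tried. PLA2G2A, a secreted form, went from 5.74, 5.03, 4.83, 4.83 and 5.80 to 2.89, 2.78, 4.58, 2.99 and 4.58. The day 8 arrays fell into a lower trio, mares 1, 2 and 4, and a higher pair, mares 3 and 5, all below the day 3 arrays. It fell by 1.68 ± 0.42 (3.21-fold lower, adjusted p = 0.00953), and its 4 other probes passed in the same direction.

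PTGER2, a receptor of prostaglandin E, rose by 1.19 ± 0.37 (adjusted p = 0.0308), from 1.76, 0.88, 0.91, 0.87 and 2.15 to 2.28, 2.15, 2.80, 2.70 and 2.62. Mares 1 and 5 were again the highest at day 3, and the groups met there, since mare 5 at day 3 equalled mare 2 at day 8 to 2 decimals. Of its 5 other probes 4 passed. The enzymes of prostaglandin synthesis and breakdown did not pass, with PTGS2, the inducible cyclooxygenase, at 0.64 ± 0.47, PTGES at 0.08 ± 0.37 and HPGD, the degrading dehydrogenase, at 0.60 ± 0.30. PTGFR, the receptor of prostaglandin F, was at −0.32 ± 0.37. PLA2G2A was not called without mare 1 or 2 (log2 change −1.54 to −1.39, adjusted p 0.0502 to 0.0834). PTGER2 did not pass without mare 2, 3 or 5, without the day 3 array of mare 4, without the day 8 array of mare 2, with scan day added, with slide added or in the 3 one-slide mares (log2 change 0.75 to 1.37, adjusted p 0.0548 to 0.199).

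Of 33 listed hormone receptors and hormone response genes only 3 had a tested probe, and 1 rose. PGRMC1, a membrane-associated progesterone receptor component, went from 5.28, 5.11, 5.18, 5.14 and 5.78 to 5.80, 6.03, 6.55, 5.97 and 6.28. The groups lay just apart, mare 5 at day 3 standing 0.02 below mare 1 at day 8, and the rise was 0.83 ± 0.20 (1.78-fold, adjusted p = 0.0072). ESR1, the oestrogen receptor alpha, had levels of 5.86, 7.05, 7.04, 6.87 and 6.54 at day 3 and of 6.12, 5.81, 5.89, 6.18 and 6.24 at day 8. It was lower at day 8 in 4 of 5 mares and did not pass (−0.62 ± 0.26, adjusted p = 0.119, 95% interval −1.17 to −0.07 without adjustment). Its 5 other probes, at −1.03 to −0.95, did not pass either. Without mare 1, the mare in which it was higher at day 8, ESR1 passed (−0.84, adjusted p = 0.0249). RARB, a retinoic acid receptor, did not pass (−0.19 ± 0.23, adjusted p = 0.615). The nuclear progesterone receptor had no named probe and was not analysed here. PGRMC1 lost its call without mare 3 or in the 3 one-slide mares (log2 change 0.65 to 0.69, adjusted p 0.0504 to 0.155).

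Among 9 tested transporters and channels of 39 listed, 2 rose and 2 fell (median 0.26). CFTR, the chloride and bicarbonate channel of secretory epithelia, went from 1.97, 1.88, 2.22, 2.74 and 2.01 to −0.03, 0.06, 0.90, 0.42 and 1.03. Every day 8 array lay below every day 3 array, and the fall was 1.69 ± 0.34 (3.23-fold lower, adjusted p = 0.00189), under every alternative tried. NKAIN2 was outside the list and rose by 1.40 ± 0.26 (adjusted p = 0.000884).

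SLC2A5, the fructose carrier GLUT5, stood at −2.81, −4.37, −4.36, −2.58 and −3.31 at day 3 and at −2.02, −2.63, −1.93, −1.96 and −1.47 at day 8. It rose in all 5 mares with overlapping groups (1.49 ± 0.38, 2.8-fold, adjusted p = 0.0112), and its 1 other probe passed. SLC11A1, a metal ion transporter of phagocytes, went from −1.26, −0.81, −0.83, −0.74 and −0.74 to 0.41, 0.14, 0.45, 0.51 and 0.12, without overlap (1.20 ± 0.19, adjusted p = 0.000201). The macrophage markers CD68 (0.10 ± 0.27), CD14 (−0.35 ± 0.29) and ITGAX (0.31 ± 0.40) did not pass beside it, and their part in the SLC11A1 result was not tested. The glucose carriers SLC5A1 (0.43 ± 0.30) and SLC2A4 (0.26 ± 0.32) and the lactate carriers SLC16A1 (−0.50 ± 0.26) and SLC16A3 (0.42 ± 0.30) did not pass. SLC2A5 missed the threshold without mare 5, with slide added or in the 3 one-slide mares (log2 change 1.40 to 1.46, adjusted p 0.0695 to 0.0787). NKAIN2 was not called in the 3 one-slide mares (log2 change 1.04, adjusted p = 0.119).

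Sugar and energy metabolism had 16 tested genes of 49 listed, 3 risen and 3 fallen (median 0.16). HK2, a hexokinase that traps glucose in the cell, went from −1.88, −2.44, −2.57, −3.47 and −2.70 to −2.13, −1.46, −1.50, −1.80 and −1.24 and was higher at day 8 in 4 of 5 mares (0.99 ± 0.30, adjusted p = 0.0299). GYS1, the muscle-type glycogen synthase, rose by 1.09 ± 0.36 (adjusted p = 0.0455) from a level above background on 2 of 5 arrays at day 3, and in 4 of 5 mares. Against the floor of each array, as for CYP3A97, the fold was 1.36. PYGL, which breaks glycogen down, fell from 1.76, 1.83, 1.77, 2.11 and 1.83 to 0.94, 1.18, 1.48, 0.80 and 1.10. Its groups did not overlap, the change was −0.76 ± 0.16 (adjusted p = 0.00314), and it was called under every alternative other than the 2-fold minimum. HK2 did not pass without mare 2, 3, 4 or 5, without the day 3 array of mare 4, without the day 8 array of mare 2 or under 4 other alternatives (log2 change 0.73 to 1.02, adjusted p 0.0599 to 0.288). GYS1 lost its call without mare 2, 3, 4 or 5, without the day 3 array of mare 4, without the day 8 array of mare 2 or under 9 other alternatives (log2 change 0.34 to 1.23, adjusted p 0.059 to 0.466).

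LDHA, the lactate dehydrogenase subunit of glycolysis, went from 0.72, −0.19, 0.08, 0.67 and 0.89 to −0.91, −0.62, −0.38, −0.89 and −0.19 (−1.03 ± 0.24, adjusted p = 0.00599). It was lower in each mare, though the groups touched, mare 2 at day 3 lying level with mare 5 at day 8. LDHB, the other subunit, did not pass (0.24 ± 0.18). CPT1A, which admits fatty acids to the mitochondrion, rose by 0.88 ± 0.27 (adjusted p = 0.0292). COX10, needed to make the haem of cytochrome oxidase, fell by 1.15 ± 0.22 (adjusted p = 0.00142), without overlap. LDHA missed the threshold with slide added (log2 change −0.91, adjusted p = 0.0702). CPT1A was not called without mare 2, 3, 4 or 5, without the day 8 array of mare 2, with slide added or in the 3 one-slide mares (log2 change 0.72 to 0.96, adjusted p 0.0753 to 0.175). COX10 did not pass in the 3 one-slide mares (log2 change −1.02, adjusted p = 0.0684). After normexp COX10 passed with −0.51.

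Both tested genes of lipid storage and metabolism, of 34 listed, were called, in opposite directions. PLIN2, which coats lipid droplets, stood at 3.73, 3.08, 3.18, 3.21 and 3.61 at day 3 and at 5.15, 4.95, 5.40, 5.11 and 4.69 at day 8. The groups were separated by almost 1 log2 unit, and the rise was 1.70 ± 0.20 (3.25-fold, adjusted p = 2.18e-05). ACLY, which makes acetyl-CoA for fatty acid synthesis, went from 3.45, 3.43, 3.66, 3.87 and 3.77 to 2.42, 2.72, 3.08, 2.45 and 3.21, without overlap (−0.86 ± 0.20, adjusted p = 0.00546), and its 1 other probe passed. Of the settings tried, the 2-fold minimum alone ended the ACLY call, and none ended that of PLIN2.

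**Figure D3:**
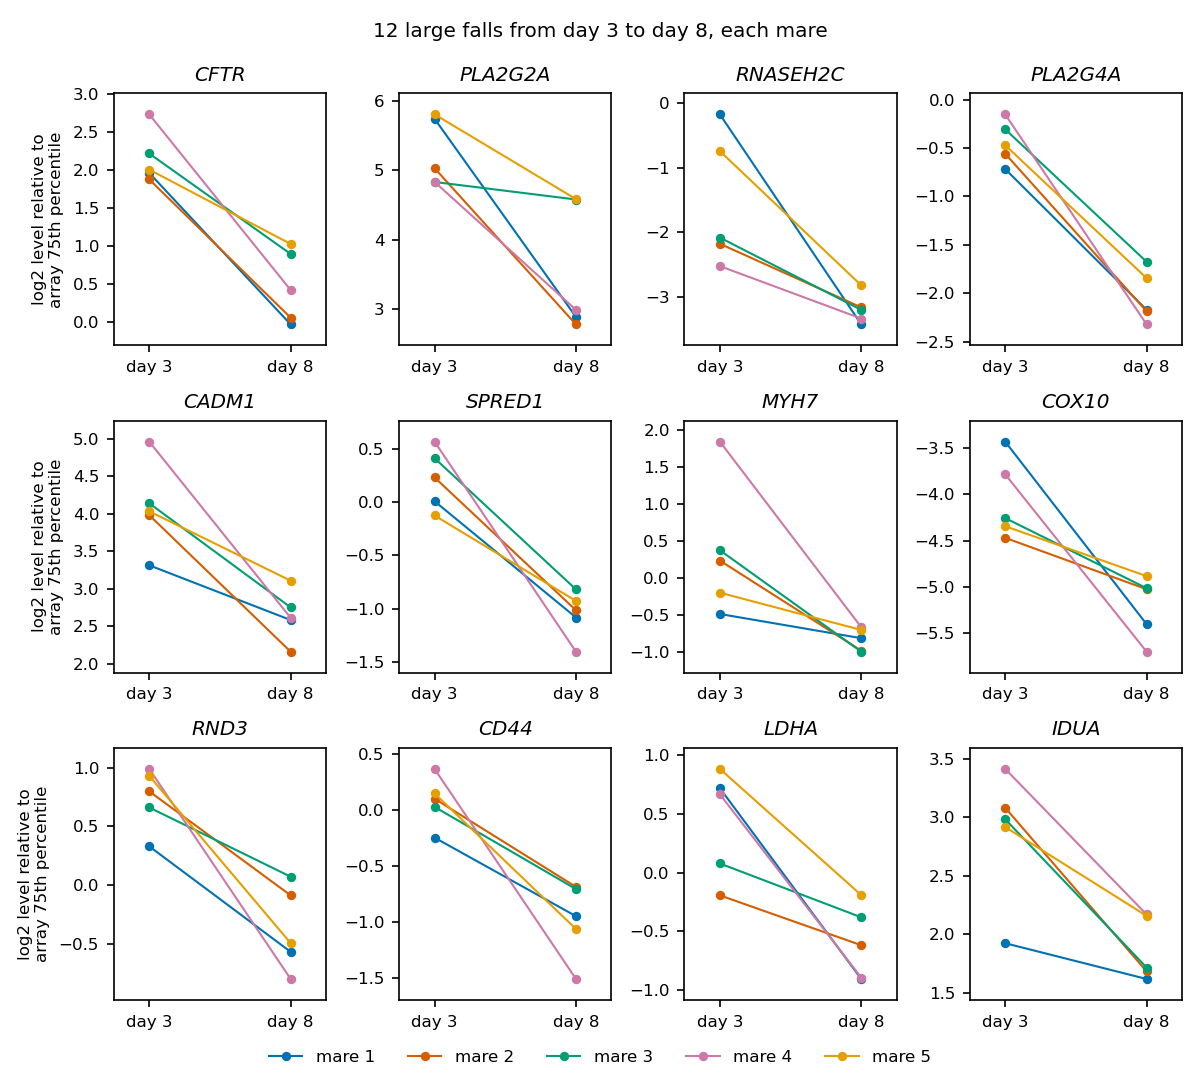
Log2 level relative to the 75th percentile of the array (vertical axis, a separate scale in each panel) at day 3 and day 8 for 12 genes with large falls. Each line joins both arrays of 1 mare, and every line falls. CFTR goes from between 1.88 and 2.74 to between −0.03 and 1.03.

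Extracellular matrix and its proteases had 16 tested genes of 56 listed, of which 2 rose and none fell (median −0.03). MMP26, matrilysin 2, a small matrix metalloproteinase known from the endometrium, went from 4.96, 4.42, 4.93, 4.51 and 5.48 to 6.39, 6.56, 6.47, 6.53 and 6.72. The day 8 arrays were closely grouped above all day 3 arrays, and the rise was 1.67 ± 0.33 (3.19-fold, adjusted p = 0.0016), under every alternative tried. COL5A2, a fibrillar collagen chain, rose by 0.70 ± 0.18 (adjusted p = 0.012). MMP9, a gelatinase, was at −1.27 ± 0.45 and did not pass (adjusted p = 0.0616), nor did HAS2, which makes hyaluronan (0.95 ± 0.44), TIMP3 (0.69 ± 0.26) and TIMP1 (−0.05 ± 0.31). COMP, a cartilage matrix protein outside the list, rose by 1.51 ± 0.35 (adjusted p = 0.00569), while its 1 other probe did not pass (1.50). COL5A2 lost its call without mare 2 or under 4 other alternatives (log2 change 0.44 to 0.68, adjusted p 0.053 to 0.103). COMP missed the threshold without mare 3 or in the 3 one-slide mares (log2 change 1.004 to 1.20, adjusted p 0.0567 to 0.227). None of 4 tested serine proteases and inhibitors passed, such as SERPINB1 (−0.28 ± 0.22, adjusted p = 0.422).

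Cell adhesion and junctions had 11 tested genes of 46 listed, 1 risen and 2 fallen (median −0.13). CTTNBP2, a cortactin-binding protein, went from 0.61, 0.52, 0.46, 0.37 and 1.33 to 3.19, 2.82, 2.92, 3.25 and 2.57. Its groups lay over 1 log2 unit apart, and the rise of 2.29 ± 0.21 (4.89-fold, adjusted p = 2.29e-06) held under every alternative tried. CADM1, an adhesion protein of the immunoglobulin family, went from 3.31, 3.98, 4.14, 4.96 and 4.03 to 2.58, 2.16, 2.75, 2.61 and 3.11 (−1.44 ± 0.24, adjusted p = 0.000364), also under every alternative. CD44, the receptor of hyaluronan, went from −0.24, 0.10, 0.03, 0.37 and 0.15 to −0.95, −0.68, −0.70, −1.51 and −1.06 (−1.06 ± 0.23, adjusted p = 0.00304). Neither gene overlapped between the days. CD44 was not called with slide added or in the 3 one-slide mares (log2 change −0.90 to −0.88, adjusted p 0.0641 to 0.0651).

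Of 9 tested genes of the cytoskeleton, myosins and small GTPases, of 53 listed, 3 fell and none rose (median −0.36). Over all named genes 9.34% fell and 7.98% rose. RND3, a small GTPase that loosens actin fibres, went from 0.33, 0.80, 0.66, 0.99 and 0.93 to −0.57, −0.09, 0.07, −0.80 and −0.49 (−1.12 ± 0.28, adjusted p = 0.00815). MYH7, a myosin heavy chain of slow muscle, fell by 1.19 ± 0.39 (adjusted p = 0.0435), and mare 4 stood far above the others at day 3 with 1.85. Its 2 other probes were at −1.11 and −1.12 and did not pass. TPM3, a tropomyosin, fell by 0.45 ± 0.13 (adjusted p = 0.0254), and none of its 3 other probes passed. The smooth muscle marker TAGLN was at 0.01 ± 0.34. PLS3, an actin-bundling protein outside the list, rose by 1.10 ± 0.30 (adjusted p = 0.0147). RND3 did not pass with slide added or in the 3 one-slide mares (log2 change −1.07 to −0.90, adjusted p 0.0578 to 0.0752). MYH7 lost its call without mare 2, 3 or 4, without the day 3 array of mare 4, without the day 8 array of mare 2 or under 5 other alternatives (log2 change −1.22 to −0.69, adjusted p 0.0564 to 0.388). TPM3 missed the threshold without mare 1, 2, 4 or 5, without the day 3 array of mare 4, without the day 8 array of mare 2 or under 5 other alternatives (log2 change −0.52 to −0.35, adjusted p 0.0601 to 0.124). PLS3 was not called without mare 2, 3 or 4, with slide added or in the 3 one-slide mares (log2 change 0.82 to 1.05, adjusted p 0.0576 to 0.325).

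Growth factors and their receptors had 6 tested genes of 51 listed, of which 2 fell and none rose (median −0.53). Among all named genes 9.34% fell and 7.98% rose. SPRED1, an inhibitor of the Ras and MAP kinase pathway, went from 0.01, 0.23, 0.41, 0.57 and −0.12 to −1.08, −1.02, −0.82, −1.41 and −0.93. The groups were clearly apart (−1.27 ± 0.23, 2.41-fold lower, adjusted p = 0.000714), under every alternative tried. IGF2, the insulin-like growth factor of fetal and placental growth, went from −1.86, −1.44, −2.09, −2.70 and −2.48 to −2.83, −2.42, −3.34, −3.20 and −3.69. It was lower at day 8 in each mare, with overlapping groups (−0.98 ± 0.26, adjusted p = 0.0122). Mares kept their place in part, since mares 1 and 2 were the highest on both days. IGF1 (0.47 ± 0.40) and MET, the receptor of hepatocyte growth factor (0.29 ± 0.28), did not pass. IGF2 did not pass without mare 2 or 3 or without the mare term (log2 change −0.98 to −0.91, adjusted p 0.0512 to 0.105).

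In innate defence, 1 of 11 tested genes of 53 listed rose (median 0.28). SAA, serum amyloid A, which rises in the acute phase response, went from −5.05, −6.91, −6.58, −5.04 and −4.30 to −2.47, −1.20, 3.11, −1.25 and −0.70. The day 8 array of mare 3, at 3.11, stood far above the other 4, and at day 3 the probe was above background on 4 of 5 arrays. The rise was 5.08 ± 1.24 (33.7-fold, adjusted p = 0.00764), with a 95% interval of 2.48 to 7.67. It was 3.78 after normexp and 5.70 without mare 1. The toll-like receptors TLR2 (0.59 ± 0.21), TLR4 (0.27 ± 0.35) and TLR3 (0.28 ± 0.21) did not pass. SAA lost its call without mare 3, with slide added or in the 3 one-slide mares (log2 change 3.92 to 5.08, adjusted p 0.0528 to 0.0843).

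Of 23 tested chemokines, cytokines and receptors, of 66 listed, 1 rose, IL5, a cytokine of eosinophils (0.58 ± 0.16, adjusted p = 0.0191), and none fell (median 0.14). None of 13 tested genes of antigen presentation and interferon response, of 50 listed, passed (median 0.18), B2M among them (adjusted p = 0.399). Over all named genes 17.3% were called. GNLY, granulysin of cytotoxic lymphocytes, went from −0.61, 0.02, −0.57, −0.70 and −0.78 to −1.26, −1.30, −1.27, −1.46 and −1.13 (−0.76 ± 0.25, adjusted p = 0.0411). It did not overlap between days, though mare 2 stood apart at day 3. LY49F, a receptor of NK cells, rose by 1.04 ± 0.34 (adjusted p = 0.0439), but its 1 other probe was at −0.42. IL5 missed the threshold without mare 1 or 2, without the day 8 array of mare 2 or under 4 other alternatives (log2 change 0.46 to 0.77, adjusted p 0.0502 to 0.117). GNLY was not called without mare 1, 2, 3 or 5, without the day 3 array of mare 4, without the day 8 array of mare 2 or under 7 other alternatives (log2 change −0.86 to −0.61, adjusted p 0.0531 to 0.145). LY49F did not pass without mare 2, 3, 4 or 5, without the day 3 array of mare 4, without the day 8 array of mare 2 or under 5 other alternatives (log2 change 0.70 to 1.11, adjusted p 0.0571 to 0.286).

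Iron handling and oxidative defence had 9 tested genes of 35 listed, 2 risen and 1 fallen (median −0.13). Beside GPX3, SOD1, the cytosolic superoxide dismutase, rose from 4.70, 4.12, 4.05, 3.83 and 4.22 to 4.98, 5.09, 5.37, 4.94 and 4.90, without overlap (0.87 ± 0.18, adjusted p = 0.0023). TXN, thioredoxin, fell from 2.91, 2.85, 2.92, 3.19 and 3.00 to 1.94, 2.18, 2.36, 1.95 and 2.47, the groups again apart (−0.79 ± 0.16, adjusted p = 0.00151). TXNRD1, its reductase, was at −0.77 ± 0.38, TFRC, the transferrin receptor, at −0.97 ± 0.52 and SOD2, the mitochondrial dismutase, at −0.13 ± 0.31, and none of them passed. SOD1 lost its call in the 3 one-slide mares (log2 change 0.64, adjusted p = 0.124).

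RNASEH2C, a subunit of ribonuclease H2, was 1 of 2 tested genes of cell cycle and proliferation, of 41 listed, and fell. Its levels were −0.17, −2.18, −2.08, −2.52 and −0.74 at day 3 and −3.43, −3.16, −3.20, −3.33 and −2.82 at day 8, with mares 1 and 5 highest at day 3 (−1.65 ± 0.29, adjusted p = 0.000579, under every alternative tried). FOS, an immediate early gene, did not pass (−0.10 ± 0.81). Of 5 tested genes of protein folding, sorting and turnover, RRAGA, a GTPase of amino acid sensing at the lysosome, rose by 0.58 ± 0.14 (adjusted p = 0.00533). In the lists of cell death (3 tested, for example MCL1, 0.08 ± 0.33), the WNT pathway (5 tested, CTNNB1, −0.51 ± 0.25) and blood vessels (7 tested, EDNRB, −0.36 ± 0.43) no gene passed. VEGFA, the main growth factor of blood vessels, was at 0.63 ± 0.32 and EDN2, an endothelin, at −0.64 ± 0.38. RRAGA missed the threshold in the 3 one-slide mares (log2 change 0.58, adjusted p = 0.0794).

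**Figure D4:**
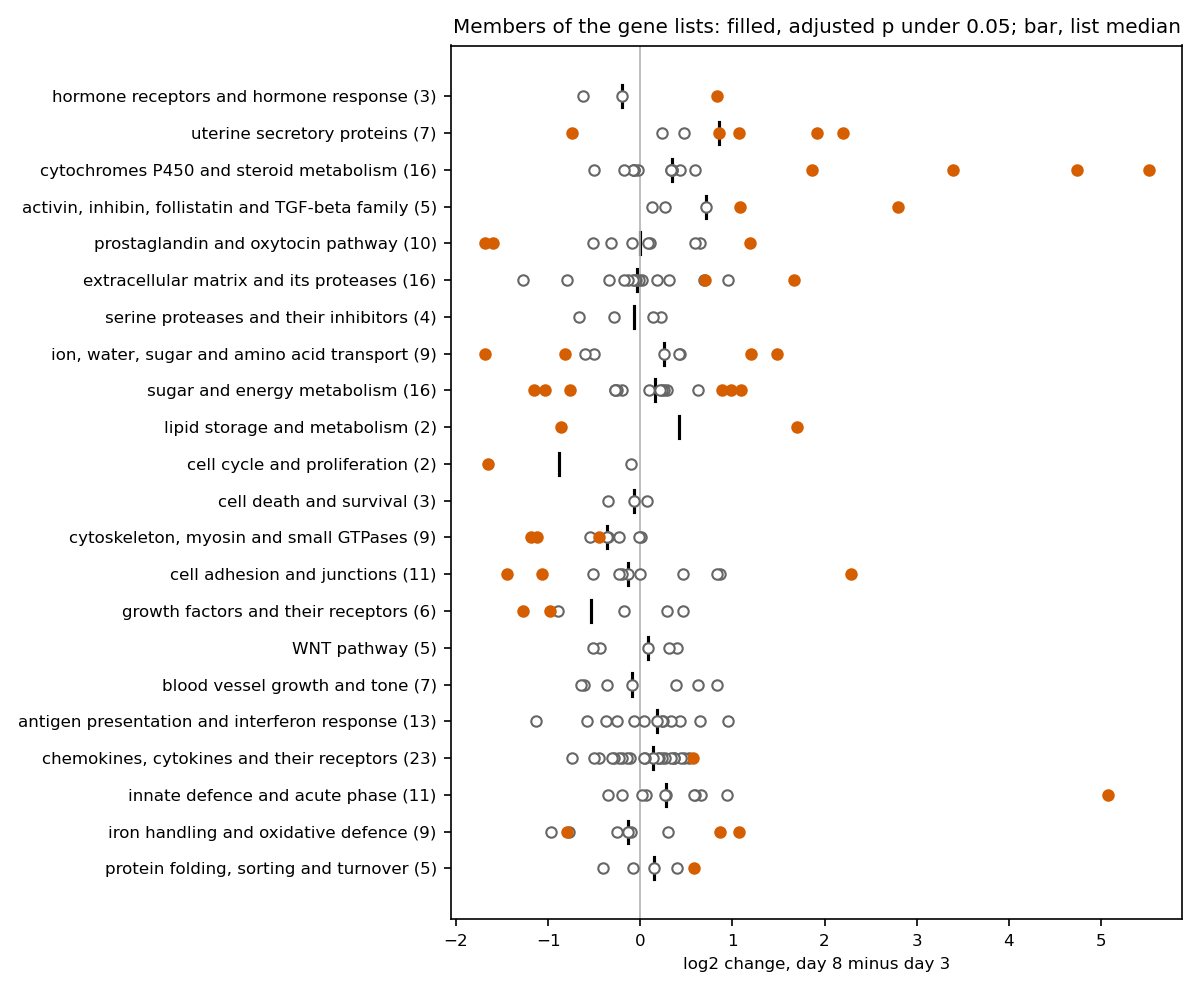
Log2 change, day 8 minus day 3 (horizontal axis), of the tested genes of each list (vertical axis, with the number tested). Filled points passed at an adjusted p under 0.05, open points did not, and the bar is the median of the list. The list of cytochromes P450 and steroid metabolism reaches from −0.50 (HSD11B2) to 5.52 (CYP3A97). The 13 genes of antigen presentation and interferon response are all open.

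Further genes that rose were FAM133B (1.24 ± 0.17, adjusted p = 7.02e-05, under every alternative tried) and WSB1, a substrate receptor of ubiquitin ligases (0.89 ± 0.25, adjusted p = 0.0206). Among the falls, TRA2B, a splicing regulator, stood at 2.97, 3.12, 3.13, 3.25 and 3.41 at day 3 and at 2.31, 2.04, 2.55, 2.33 and 2.54 at day 8, without overlap (−0.82 ± 0.14, adjusted p = 0.000383). IDUA, a lysosomal enzyme that degrades glycosaminoglycans, fell by 0.99 ± 0.24 (adjusted p = 0.00721), UBE2S, a ubiquitin-conjugating enzyme of mitotic exit, by 0.90 ± 0.26 (0.0201), and GPCPD1, which degrades glycerophosphocholine, by 0.92 ± 0.24 (0.0124). NFYB, a subunit of the CCAAT-binding factor, fell by 0.78 ± 0.18 (0.00505), BTF3L4 by 0.80 ± 0.24 (0.0247) and ASZ1, known from germ cells, by 0.76 ± 0.24 (0.0381). Of the 58 called genes that the naming rule selected, 24 changed by under 2-fold. Another 10 named genes rose, by 0.45 to 1.07, and 21 fell, by −2.04 to −0.45, that the naming rule did not select. WSB1 was not called without mare 1, 2, 3 or 5, with slide added or in the 3 one-slide mares (log2 change 0.77 to 0.92, adjusted p 0.0544 to 0.111). IDUA did not pass without mare 2 or in the 3 one-slide mares (log2 change −0.89 to −0.82, adjusted p 0.0558 to 0.147). UBE2S lost its call without mare 1 or 5, in the 3 one-slide mares or on the 10 arrays alone (log2 change −1.13 to −0.64, adjusted p 0.0554 to 0.141). GPCPD1 missed the threshold with slide added (log2 change −0.998, adjusted p = 0.0517). NFYB was not called in the 3 one-slide mares (log2 change −0.62, adjusted p = 0.0791). BTF3L4 did not pass without mare 1 or 4, without the day 3 array of mare 4, with slide added or in the 3 one-slide mares (log2 change −0.78 to −0.60, adjusted p 0.0745 to 0.214). ASZ1 lost its call without mare 1, 2 or 3, without the day 3 array of mare 4, without the day 8 array of mare 2 or under 7 other alternatives (log2 change −0.78 to −0.46, adjusted p 0.0504 to 0.158).

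The mares differed in the size of their changes, and over all tested probes their differences went together only in part. The median absolute log2 difference between both arrays of a mare was 0.48, 0.35, 0.49, 0.59 and 0.41 in mares 1 to 5. Of the called probes, 97.45%, 99.62%, 97.3%, 99.7% and 99.09% went the pooled way in these mares, which is no independent check, since each mare enters the calls. Over all tested probes, 32.1% went 1 way in all 5 mares, and of the named genes 26.7%. The correlation of the differences between 2 mares, across probes, was 0.237 to 0.646 with a median of 0.581 over 10 pairs, and probes are not independent replicates. Between mares, a probe had a median SD of 0.45 at day 3 and 0.289 at day 8.

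Most probes carried no gene symbol. The highest fitted changes among them were those of 2 probes of a transcript known as ENSECAT00000023902 (9.14 ± 1.31 and 9.11 ± 1.37), which were above background on 1 of 5 arrays at day 3 and on 5 of 5 at day 8. Against the floor of each array their folds were 228 and 219, and the larger fitted values rest on signals not above background. The probe of ENSECAT00000012250 fell by 4.62 ± 0.69 and was above background on 3 of 5 arrays at day 8. For ENSECAT00000019461 the fitted change was −4.53 ± 0.71, above background on 2 of 5 arrays at day 8, and 11.3-fold lower against the floor. The files do not pair these identifiers with gene names.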

How the data were processed

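One-colour Agilent arrays gave the messenger RNA of 25 biopsies, of which those of days 3 and 8 form the comparison. The deposited values are intensities that Agilent Feature Extraction 10.7.3.1 corrected for background, per the file headers and the submitters' processing notes. The deposited value table equalled the processed signal of the scanner files on 25 of 25 arrays. Each array was divided by its 75th percentile and taken to log2. A change in total RNA would therefore not be seen. Spots marked as outliers were treated as missing, and repeated spots averaged. Testing required a probe to be well above background on 4 or more of 5 arrays on any 1 day.

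All 25 arrays were fitted in limma 3.58.1 (R 4.3.3) with day and mare as terms, so that standard errors pool the spread of 5 days. Day 8 minus day 3 was tested two-sided with Benjamini-Hochberg adjustment over 35769 probes, called at an adjusted p under 0.05. The pairing comes from the labels, which name the mare. Deviations from the day means correlated at 0.245 within mares, −0.0473 between mares and 0.12 within mares across slides. Between the day 3 and day 8 arrays of mares 1 to 5 the correlation was 0.361, 0.587, −0.306, 0.353 and 0.549.

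Symbols came from RefSeq accessions (assembly TB-T2T) for 1307 probes of 620 genes, and the probe with the highest mean signal stood for a gene. The genes named are up to 25 largest rises and 25 largest falls that passed in 1 direction in all 5 mares, every called list member, an example from each list with none, and the hormone list. The members and lists were chosen with earlier results of these data known. The values of some genes are not reported here. The code of the fit was run on simulated data with the same spread on all days and no slide effect. That run does not show how the fit behaves on these arrays. Python 3.11.15 with pandas 2.3.3, numpy 2.4.6 and matplotlib 3.10.9 made the tables and figures. Alternatives were other blocks (slide, scan day, no mare), fewer arrays or mares, quantile normalization, normexp (offset 50, marked local backgrounds replaced), other filters on dim probes, an intensity trend and a 2-fold minimum. Leaving out the day 8 array of mare 2 was chosen after seeing the data.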

Additional observations from a re-analysis of the deposited data

Results flagged for a closer look

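In 11 of 130 groups of 5 arrays examined (a named gene on day 3 or day 8), 1 mare stood apart from the other 4 beyond Dixon's critical value of 0.71, and chance flags about 1 in 20 groups. At day 3, mare 4 was apart in 3 genes, low in GPX3 (log2 level −2.15) and high in PYGL (2.11) and WSB1 (4.12). Mare 5 was high at day 3 in CTTNBP2 (1.33) and PGRMC1 (5.78), mare 2 was high in GNLY (0.021) and mare 1 low in SLC11A1 (−1.26). At day 8, mare 3 was low in CPT1A (−0.71) and high in PLS3 (4.02), mare 1 was high in GM2A (−0.094) and mare 4 low in RARB (−2.92). Without mare 4, GPX3 was at 0.90 (adjusted p = 0.185), and without mare 1, GM2A was at 0.69 (adjusted p = 0.109).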

How the results depend on the processing

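None of the 58 called genes of the naming rule changed sign under any alternative. The count of called probes was 6037 (2730 higher, 3307 lower, 89 named genes). It was 3485 (1448, 2037; 50 named, 22 risen and 28 fallen) with slide added. In the 3 mares with both arrays on 1 slide it was 2478 (994, 1484; 29 named, 13 and 16), and with a 2-fold minimum 2745 (1529, 1216; 37 named, 24 and 13). The 2-fold minimum can only lower these counts. In the one-slide mares, the smaller number of mares and the slides cannot be told apart. For the slide term the cause was not tested. Leaving out 1 mare gave 4007 to 4432 probes (1715 to 2144 higher, 2204 to 2589 lower) and 55 to 72 named genes (24 to 34 risen, 30 to 38 fallen). Without the day 3 array of mare 4, 31 named genes fell. Without the day 8 array of mare 2, 4720 probes (2039, 2681) and 69 named genes (30 and 39) were called. Without mare as a replicate block 4927 probes (72 named genes) were called, 4863 of them shared, and 8 of these 58 calls were lost (ASZ1, CLU, GNLY, GPX3, GYS1, IGF2, LY49F and TPM3). Of the calls 45.22% were higher, 38.4% after quantile normalization and 52.98% on the 10 arrays alone, where 2710 were higher and 2405 lower (38 named genes risen, 35 fallen). Of the 58 calls, 26 held under every alternative other than the one-slide mares and the 2-fold minimum, 19 of them also in the one-slide mares. The median change over all probes was 0.08, −0.01 after quantile normalization and 0.13 after normexp. Dim probes limit the levels near background, and the 5 arrays per day limit the precision.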

Other observations

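Some families, most of them outside the lists, were looked at after their values had been seen, so their counts are a description with no test. YWHAE and YWHAQ, 2 of 3 tested 14-3-3 adaptor proteins, fell, as did PSMB2 and PSMD4, both tested subunits of the proteasome, and CLTA, 1 of 2 tested clathrin light or heavy chains. None of 4 ribosomal proteins and none of 4 subunits of AMP-activated kinase passed. Of the kinase, PRKAA1, PRKAA2 and PRKAG3 are also counted in the list of sugar and energy metabolism. All these genes are read against a background of 9.34% of named genes fallen and 7.98% risen.

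Mares 1 and 5 were the 2 highest at day 3 in 19 of the 58 called genes that the naming rule selected, P19, LGB1, PTGER2 and RNASEH2C among them, the most of the 10 pairs of mares (0 to 12 for the others). At day 8, mares 3 and 5 were the 2 highest in 17, and the other pairs in 2 to 8. This pattern was seen after the values, and it was not tested.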
